A study of Mus musculus with 18 samples.

Results

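The 10 immediate early genes Egr1, Egr2, Fos, Fosb, Jun, Junb, Ier2, Dusp1, Atf3 and Zfp36 were followed through mouse fetal liver erythropoiesis by their nascent RNA. They were chosen by symbol as genes known to respond first to a stimulus, with earlier results of these data in view, and are 10 of the 54232 gene identifiers in the count table. The sorted cells came from fetal livers of C57BL/6 embryos aged e12.5 to e13.5. The 5 erythroid populations were lineage-negative cells separated by surface CD71 (the receptor for transferrin) and Ter119 (gained as erythroid cells mature). They run from S0-Low (stem and progenitor cells and burst-forming erythroid units) through S0-Medium and S1 (early and late colony-forming erythroid units) to the Ter119-positive, terminally differentiating S2 and S3. Lineage-positive cells (Lin+) form the sixth group. The labels name no transgene, mutation or drug. All groups were sorted, rested for 6 h in a serum-containing medium and given 500 µM 4-thiouridine (4sU) for 45 min, so that RNA made in that time could be purified. There were 3 libraries of each group. The labels number them 1 to 3 without saying which embryos or days they came from, so p-values measure the spread between these libraries only.

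Immediate early genes are transcribed within minutes of a signal such as a growth factor or a stress, without new protein being made first. Kinase cascades reach factors already bound at their promoters, among them serum response factor with its partners at CArG boxes and CREB-family factors at cyclic AMP response elements. Many of the products are transcription factors that act on later genes, and others, such as the phosphatase Dusp1 and the RNA-binding protein Zfp36, damp the response. Cell sorting and culture are known to induce these genes in many tissues. Every group here was sorted and rested, there was no unsorted group, and the part of handling in the levels below was not tested.

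RefSeq promoter windows, from 250 bases before to 50 after a start site on GRCm38.p6, were used for 8 of the 10 genes. No window of Egr1 or Ier2 was used, so the counts below say nothing about the promoters of these genes. The letters TGACGT, the first part of a cyclic AMP response element, were found on one strand or the other in windows of 4 of these 8 genes, Dusp1, Atf3, Fos and Egr2, beside 8.37% of 27025 genes with a window. A gene can have several overlapping windows, so by window the counts were 6 of 12 and 7.51% of all 32851 windows. The full element TGACGTCA, which contains those letters, was found in Dusp1 alone and in 2.03% of all genes. A CArG box was found in windows of Egr2 and Zfp36 and in 1.81% of all genes. The AP-1 element TGACTCA, present in 5.95% of all genes, and the EGR element GCGTGGGCG, present in 0.707%, were found in none of the 8. These matches describe letters and do not show binding. The 250 bases upstream of the start site are shown for Dusp1, Atf3 and Fos. These are the genes with TGACGT in a window whose highest erythroid mean level was in S3. Junb and Zfp36 also had their highest erythroid mean in S3, without TGACGT in their windows. Egr2 had TGACGT and 0 counts in S3. Bases are in lower case, with each TGACGT, its reverse complement or the full element in capitals.
Dusp1 (chr17:26508473-26508722, minus strand): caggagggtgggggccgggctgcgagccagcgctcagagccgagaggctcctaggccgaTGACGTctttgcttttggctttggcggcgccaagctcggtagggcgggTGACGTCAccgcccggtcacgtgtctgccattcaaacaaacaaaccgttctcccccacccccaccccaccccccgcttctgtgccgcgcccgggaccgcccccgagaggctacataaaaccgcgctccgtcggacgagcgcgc
Atf3 (chr1:191183334-191183583, minus strand): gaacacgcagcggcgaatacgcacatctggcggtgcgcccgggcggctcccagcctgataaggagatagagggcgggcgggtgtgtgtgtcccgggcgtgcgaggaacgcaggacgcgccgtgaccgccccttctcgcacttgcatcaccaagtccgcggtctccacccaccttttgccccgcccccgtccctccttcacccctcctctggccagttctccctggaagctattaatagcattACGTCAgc
Fos (chr12:85473640-85473889, plus strand): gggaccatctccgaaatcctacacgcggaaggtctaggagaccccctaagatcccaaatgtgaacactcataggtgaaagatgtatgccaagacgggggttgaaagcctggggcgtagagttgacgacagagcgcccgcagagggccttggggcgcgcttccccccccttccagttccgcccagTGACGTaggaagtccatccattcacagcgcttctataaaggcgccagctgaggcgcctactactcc
The Dusp1 stretch holds a full element 143 bases and a partial one 191 bases before the start site, Atf3 has its match 8 bases before it, and Fos 66 bases before it.

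The total count per library ranged from 9452476 (S0-Low replicate 3) to 40567976, and 3 counts correspond to 0.0622 to 0.249 CPM. CPM here means counts scaled to a common library total after TMM normalization, and every level below is in that unit. PCR products were not marked with molecular identifiers, so floors of 3 counts cover counting error only. The summed level of 4 erythroid markers (Slc4a1, Alas2, Epb42 and Tfrc) was 293 to 460.2 CPM in S0-Low and 21180 to 34730 CPM in S3. The summed level of 8 neutrophil and monocyte markers was 429 to 832 CPM in S0-Low, 15.5 to 199.9 CPM in S0-Medium, at most 1.58 CPM in S1, S2 and S3, and 3697 to 6204 CPM in Lin+, with Itgam at 0 in every library. The labels call all samples erythroblasts, Lin+ included, but the erythroid markers of Lin+ summed to only 171 to 222 CPM. In these bulk samples, fewer cells of a type and less RNA per cell cannot be told apart.

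Egr1 lies at 18:34861207-34864956, Egr2 at 10:67534469-67542188, Fos at 12:85473890-85477274 and Atf3 at 1:191170296-191183333 in RefSeq's annotation of GRCm38.p6. Jun lies at 4:95049036-95052222 and Dusp1 at 17:26505591-26508472. Fosb (7:19302696-19310118) shares chromosome 7 with Zfp36 (7:28376784-28379228). Junb (8:84976909-84978748) and Ier2 (8:84661331-84662852) lie on chromosome 8 on either side of Klf1, the gene of an erythroid transcription factor.

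All 10 genes passed the filter on low counts, Egr2 among the erythroid libraries only through S0-Low and S0-Medium. Per kilobase of exon, mean levels in S3 were 125 CPM for Ier2, 109 for Dusp1, 45.4 for Egr1, 42.9 for Junb, 12.3 to 12.6 for Zfp36, Fos and Jun, 9.47 for Atf3 and 0.272 for Fosb, with Egr2 at 0. In S0-Low the order was led by Ier2 (44.3 CPM per kilobase), Junb (26.5) and Egr1 (10.1), and Dusp1 stood at 2.52.

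**Figure D1:**
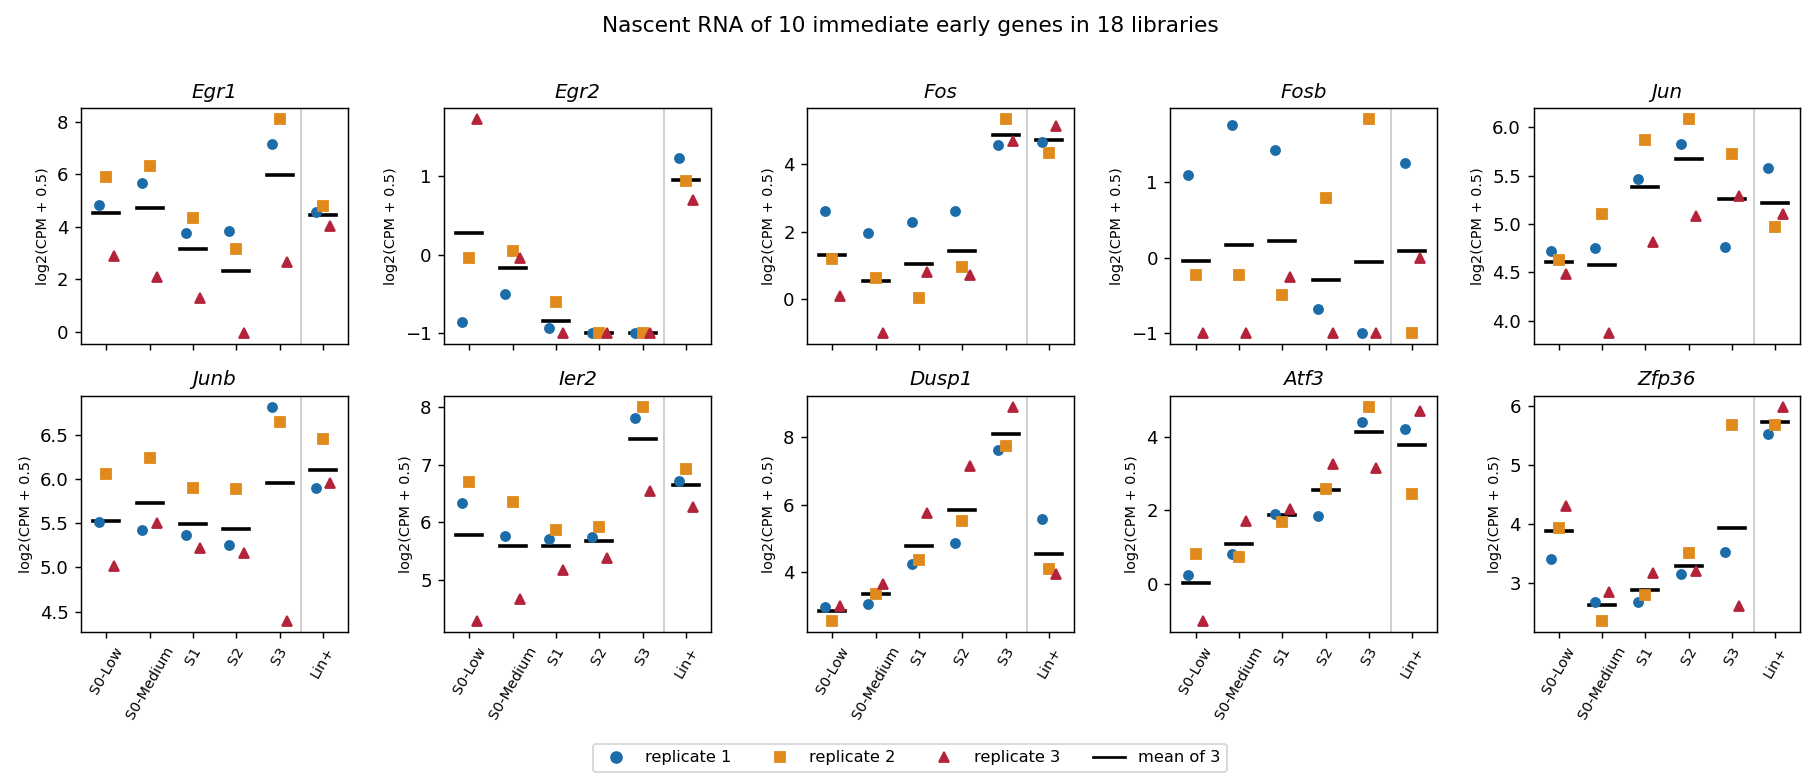
Nascent RNA of each gene, as log2(CPM + 0.5) on the vertical axis with a separate scale for each gene, in 3 libraries of each population (points, shaped and coloured by replicate number) with their mean (bar). Dusp1 climbs through the erythroid populations, Fos is low until S3, Egr2 is at its floor in S2 and S3, and the Egr1 points of replicate 3 lie lowest in every erythroid population.

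Across the whole span from S0-Low to S3, 3 of the 10 genes passed the test as higher in S3 and 1 as lower. A gene passed where edgeR's quasi-likelihood p, adjusted by Benjamini-Hochberg over 16555 genes, was under 0.05. Of all genes tested, 13.4% were called higher and 22.4% lower (2220 and 3712 genes, or 1156 and 6228 with library totals in place of TMM). Dusp1, Atf3 and Ier2 rose. Egr2 was the gene called lower, from counts too low to pass the filter in S3 and S0-Low alone. An adjusted p above the threshold does not show that a gene did not differ. The median log2 fold change of the 10 genes was 1.1 against -0.54 for all genes tested.

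Dusp1, a phosphatase that switches off MAP kinases, had the largest fitted rise of the 10 genes. Its level was 7.44, 5.43 and 7.55 CPM in S0-Low, 7.96, 9.79 and 12.1 in S0-Medium, 18.5, 20.2 and 53.5 in S1, 28.8, 45.0 and 141 in S2, and 196.7, 210.4 and 471.2 in S3 (replicates 1, 2 and 3 in this order throughout). The means rose at each of the 4 steps and every same-numbered pair was higher at each step. Libraries of neighbouring populations overlapped only between S1 and S2. S3 stood 5.43 above S0-Low on the log2 scale (SE 0.67, edgeR adjusted p = 3.47e-05), and the call held under all 13 alternatives, with log2 fold changes from 4.53 to 5.64. Libraries of the same number differed by 26.4-, 38.7- and 62.4-fold, though numbers were not taken as pairs between S3 and S0-Low.

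Atf3, a stress-induced factor of the CREB family, was also low in progenitors. Its level was 0.697, 1.25 and 0 CPM in S0-Low, 1.27, 1.17 and 2.79 in S0-Medium, 3.25, 2.69 and 3.64 in S1, 3.13, 5.51 and 8.99 in S2, and 20.4, 27.5 and 8.45 in S3. Each S3 library lay above each S0-Low library, while S3 replicate 3 overlapped S2. The log2 fold change from S0-Low to S3 was 4.81 (SE 1.16, edgeR adjusted p = 0.00522), called under all 13 alternatives with adjusted p up to 0.0489.

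Ier2, a small nuclear protein induced by growth factors, was already well transcribed in progenitors. Its level was 80.4, 102.9 and 19.1 CPM in S0-Low, 53.9, 81.3 and 25.1 in S0-Medium, 52.1, 57.6 and 35.7 in S1, 53.2, 60.0 and 41.1 in S2, and 222.9, 255.8 and 92.6 in S3. S3 replicate 3 lay below S0-Low replicate 2, so these groups overlapped. Each S3 library lay above the S0-Low library of its number, but numbers were not taken as pairs between these groups. The log2 fold change was 1.495 (SE 0.55, edgeR adjusted p = 0.046). The call was lost without S3 replicate 1 (adjusted p = 0.105), S3 replicate 2 (0.128), S0-Low replicate 1 (0.0842) or S0-Low replicate 3 (0.13). It was also lost with only the 6 libraries compared (log2 fold change 1.32, adjusted p = 0.15) and with scaling by library totals (0.73, adjusted p = 0.298).

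Egr2, a zinc finger factor used in myeloid and lymphoid cells, went the other way. It had 2, 19 and 34 counts in S0-Low (0.0517, 0.474 and 2.82 CPM), 9, 23 and 16 in S0-Medium, 1, 6 and 0 in S1, and 0 in each library of S2 and S3. The counts were therefore low even where it was detected. By group means S3 was at least 6.26-fold lower than S0-Low, taking the floor of 3 counts per library in S3 (edgeR adjusted p = 0.0279). That limit rested on S0-Low replicate 3 and was 1.47-fold without it. The call was lost without any one S3 library (adjusted p from 0.0625 to 0.0761), without S0-Low replicate 3 (0.0714) and without replicate 3 of every population (0.115). With only the 6 libraries compared Egr2 did not pass the filter and was not tested. It entered the test only through S0-Low and S0-Medium, so the call by itself is no support for a fall. Summed markers of several other cell types were lower in S3 than in S0-Low too. Beside the neutrophil and monocyte sums above, those of 3 progenitor markers were 694 to 999 CPM in S0-Low and 0 to 9.87 in S3, of 3 endothelial markers 56.8 to 160.4 and 7.79 to 12.3, of 3 stromal markers 24.8 to 36.9 and 0, and of 3 mast cell and basophil markers 21.5 to 32.2 and 0. Macrophage, B cell and hepatocyte sums were at most 18.1 CPM in S0-Low and at most 4.28 in S3. Sums of 5 megakaryocyte markers overlapped, at 32.5 to 142.2 CPM in S0-Low and 18.3 to 86.6 in S3. The part of these cells in the Egr2 result was not tested.

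Fos, the AP-1 subunit that pairs with Jun proteins, was low in the first 4 populations. Its level was 5.66, 1.77 and 0.581 CPM in S0-Low, 3.38, 1.05 and 0 in S0-Medium, 4.37, 0.522 and 1.24 in S1, 5.59, 1.44 and 1.15 in S2, and 23.4, 39.8 and 25.0 in S3. The S3 libraries lay above every library of the other erythroid populations. The log2 fold change from S0-Low was 3.45 (SE 1.41) and missed the threshold (edgeR adjusted p = 0.0658; called in 4 of 13 alternatives).

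Egr1, a zinc finger factor and an early responder to serum, varied widely between libraries of one population. Its level was 28.3, 58.4 and 6.89 CPM in S0-Low, 51.0, 79.2 and 3.76 in S0-Medium, 13.2, 19.8 and 1.94 in S1, 13.9, 8.28 and 0.459 in S2, and 140.5, 275.7 and 5.86 in S3. Replicates 1 and 2 of S3 were the highest of all libraries, and replicate 3 of S3 lay below every S0-Low library. The log2 fold change was 2.17 (SE 1.30, edgeR adjusted p = 0.198), and 1.23 to 2.92 with 1 library left out. It was called in 3 of 13 alternatives, with no filter (adjusted p = 0.0113), with the replicate block (1.47, 0.0349) and without replicate 3 of every population (0.00573).

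The mean levels of Jun and Junb, the partners of Fos, differed between populations by smaller factors than those of Fos. Jun was at 25.8, 24.2 and 21.9 CPM in S0-Low and 26.6, 52.4 and 38.5 in S3, without overlap, and had its highest mean in S2 (52.4 ± 17.3, SD, n = 3). Junb was at 45.3, 66.3 and 31.8 CPM in S0-Low and 112.3, 99.8 and 20.5 in S3, where replicate 3 was the lowest of all libraries. Neither passed the test (edgeR adjusted p = 0.219 for Jun and 0.299 for Junb), and both log2 fold changes, 0.71 and 0.70, turned negative with library totals in place of TMM, at -0.14 and -0.07.

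Zfp36, which binds AU-rich messages and speeds their decay, was at 10.0, 14.8 and 19.2 CPM in S0-Low and at 5.88, 4.62 and 6.69 in S0-Medium, without overlap. It stood at 11.1, 50.8 and 5.57 CPM in S3, where replicate 2 alone was high. Fosb, another AP-1 subunit, had at most 3.06 CPM in any library. It had 0, 68 and 0 counts in S3 and 63, 14 and 0 in S0-Low, so that single libraries carried its means.

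Libraries of S3 and S0-Low did not overlap for 4 genes that were higher in S3 (Fos, Dusp1, Atf3 and Jun) and, by the CPM values, for 1 that was lower (Egr2). The 2 counts of Egr2 in S0-Low replicate 1 lie under the floor of 3 counts, so its separation from S3 is not shown at this depth. Of all genes tested, 16.6% and 25.9% were separated in these directions.

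**Figure D2:**
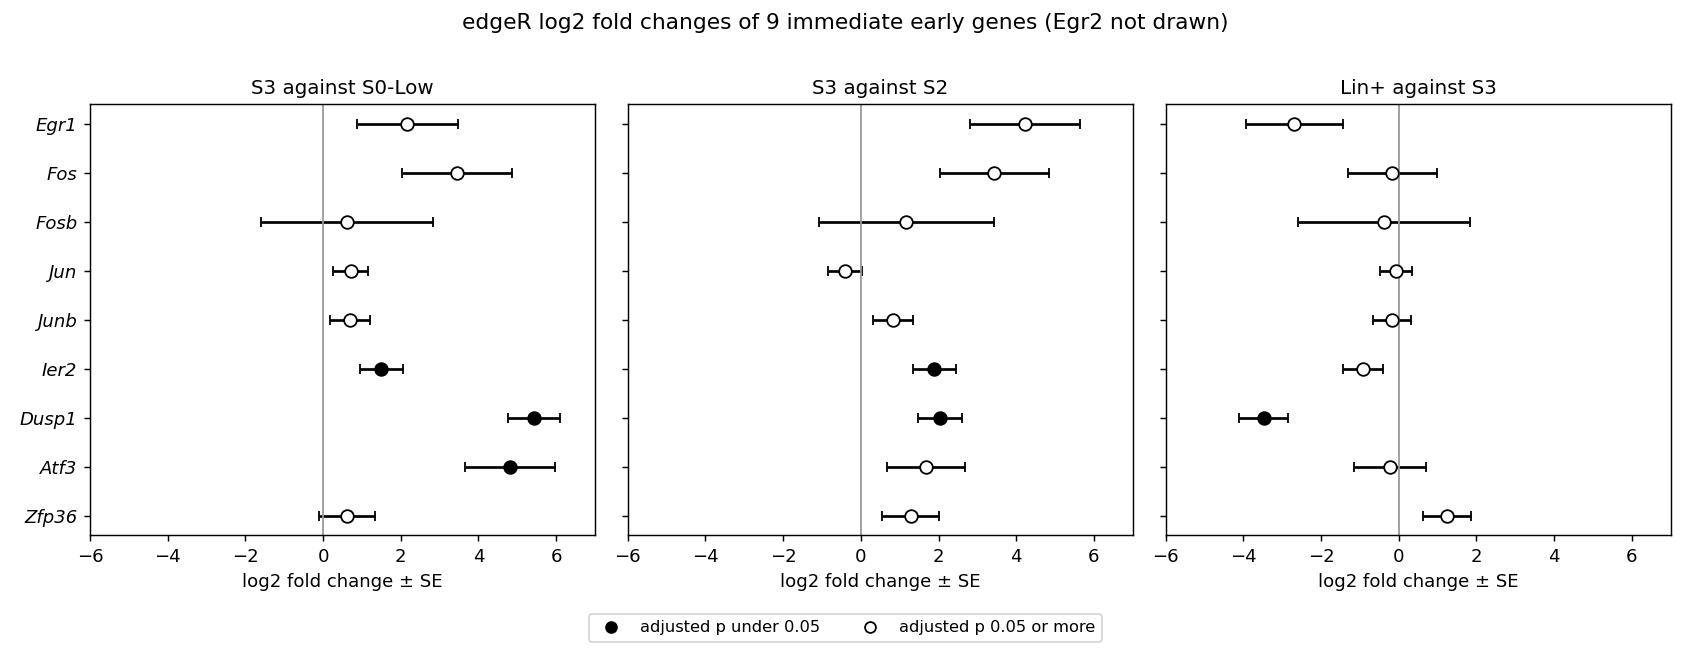
edgeR log2 fold changes (points) with their standard errors (bars) for 9 genes in 3 comparisons, filled where the adjusted p was under 0.05. Egr2 is not drawn because all S3 libraries had 0 counts. Dusp1, Atf3 and Ier2 are filled in S3 against S0-Low, Dusp1 and Ier2 in S3 against S2, and Dusp1 in Lin+ against S3. The comparisons share the S3 libraries.

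Between successive populations, genes of this group were called at the last step only. From S0-Low to S0-Medium, S0-Medium to S1 and S1 to S2, edgeR called 0 of the 10 genes, and 0% of all genes. Without adjustment, 0, 1 and 1 of the 10 had a p under 0.05, in each case Dusp1 and higher, beside 1.68% of all genes higher at S0-Medium to S1 and 1% at S1 to S2. DESeq2 also called 0 of the 10 at each of these steps, beside 0.309%, 2.35% and 0.983% of all genes. A fit with the replicate number as a block called 0 too, beside 0.139%, 0.344% and 0%. Dusp1 differed by 1.62 on the log2 scale from S0-Medium to S1 (SE 0.57, edgeR adjusted p = 0.472) and by 1.22 from S1 to S2 (SE 0.56, adjusted p = 1). S0-Medium and S0-Low did not overlap for Dusp1 (higher, 5.21% of all genes) and Zfp36 (lower, 6.64%), and S1 and S0-Medium did not overlap for Dusp1 (higher, 6.98%) and Egr2 (lower, 10.2%, with 9 counts against 6 in the nearest libraries). S2 and S1 overlapped for all 10 genes, where 3.61% of all genes were separated as higher and 7.77% as lower.

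From S2 to S3, 2 of the 10 genes were called higher and 0 lower, where 3.26% and 6.09% of all genes were called (540 and 1008 genes, or 288 and 2264 with library totals). These were Dusp1 (log2 fold change 2.04, SE 0.57, edgeR adjusted p = 0.0357) and Ier2 (1.89, SE 0.56, adjusted p = 0.0453). Without adjustment, 4 of the 10 had a p under 0.05, all higher, beside 8.96% of all genes. The median log2 fold change of the 10 genes was 1.48 against -0.31 over all genes. S3 and S2 libraries did not overlap for Fos, Dusp1 and Ier2, all higher in S3, as for 8.99% of all genes. Some marker sums were higher in S3 as well. Those of the erythroid list were 4089 to 9838 CPM in S2 and 21180 to 34730 in S3, those of 3 endothelial markers 0.0846 to 1.89 and 7.79 to 12.3 (Cdh5 at 0 in both), and those of 5 megakaryocyte markers 13.6 to 22.9 and 18.3 to 86.6, with overlap (Gp1bb and Ppbp at 0 in both). Their part in the immediate early gene levels was not tested.

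Libraries with the same number deviated together between S2 and S3, so the fit with the replicate number as a block was made too. With that block 4 genes were called higher, beside 7.3% of all genes. Egr1 joined with a log2 fold change of 3.98 (edgeR adjusted p = 0.000309, against 4.22, SE 1.42 and 0.0733 without the block), and Fos with 4.12 (adjusted p = 0.0304, against 3.44, SE 1.41 and 0.132). Within the 3 numbered pairs Egr1 was 10.1-, 33.3- and 12.8-fold higher in S3 than in S2, Fos 4.19-, 27.7- and 21.8-fold, Ier2 4.19-, 4.27- and 2.25-fold, and Dusp1 6.83-, 4.68- and 3.34-fold. All pairs of these 4 genes moved upward, and the blocked fit that called them uses the same pairs, so this is no separate support. The share of all genes with every pair upward was not computed. Junb was higher in S3 in 2 of 3 pairs (2.99-, 1.70- and 0.581-fold) and Jun in 1 of 3.

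Single libraries and other settings ended the unblocked calls at this step. Both were lost with library totals (adjusted p = 0.0701 for Dusp1 and 0.0967 for Ier2) and with only the 6 libraries compared (0.152 and 0.089). The Dusp1 call was lost without S3 replicate 3 (adjusted p = 0.16), S2 replicate 1 (0.143) or S2 replicate 2 (0.146). The Ier2 call was lost without S3 replicate 1 (0.0994), S3 replicate 2 (0.0986) or any one S2 library (0.0915 to 0.135), and Egr1 was called without S3 replicate 3 (0.0462).

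**Figure D3:**
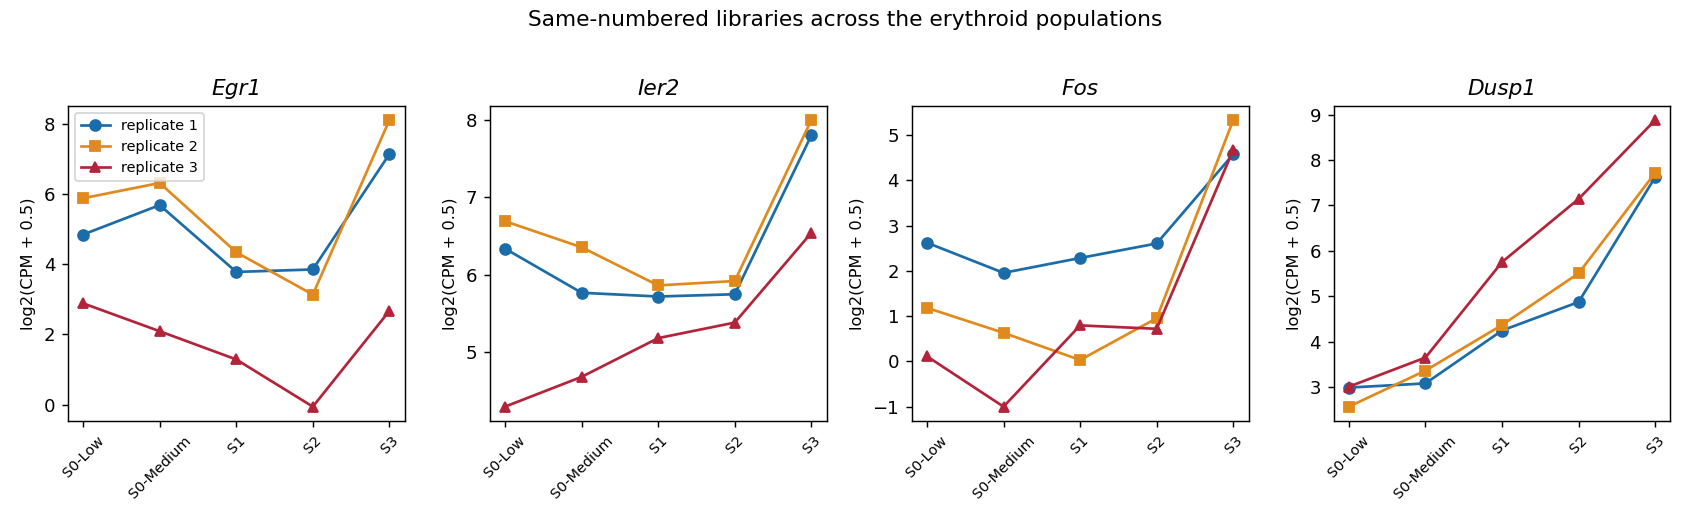
Levels of 4 genes as log2(CPM + 0.5) across the erythroid populations, with lines joining libraries of the same replicate number. From S2 to S3 all 12 lines rise, and these are the 4 genes that the fit with the replicate block called higher at this step. Egr1 and Ier2 of replicate 3 run below the other lines at every population and Dusp1 of replicate 3 above them.

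The replicate numbers themselves went with large differences. Egr1 was lowest in replicate 3 in 5 of 5 erythroid populations, where the mean of replicates 1 and 2 was 6.29 to 35.5 times the level of replicate 3. Ier2 was also lowest there in 5 of 5 populations, by 1.38 to 4.802 times, and Jun and Junb in 4 of 5. Dusp1 was highest in replicate 3 in 5 of 5.

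A test of any difference among the replicate numbers over the 15 erythroid libraries, chosen after these values were seen, called 3 of the 10 genes and 11.8% of all genes. Replicate 3 differed from the mean of replicates 1 and 2 by -3.78 on the log2 scale for Egr1 (SE 0.42, edgeR adjusted p = 5.98e-05 for this contrast), by -1.17 for Ier2 (SE 0.23, adjusted p = 0.00371) and by 1.12 for Dusp1 (SE 0.23, adjusted p = 0.00439). By this contrast 6.63% of all genes were higher in replicate 3 and 8.89% lower. Of the 4 erythroid markers 3 were higher, Epb42 among them (1.59, edgeR adjusted p = 5.3e-05). Of 8 heat shock genes, 5 were lower, with Hspa8 at -2.14 (adjusted p = 3.96e-05), and 1 was higher, Dnajb1 (0.49, adjusted p = 0.0267). Of the 28 other immediate early genes, 4 were higher, with Btg2 at 2.03 (adjusted p = 0.000138) and Klf10 at 0.78 (0.00984), and 3 were lower, with Per1 at -1.48 (0.00134). The replicate 3 libraries had 9452476 counts in S0-Low and 25303249 to 30056070 in the other erythroid populations. What these measurements contribute to the pattern of Egr1, Ier2 and Dusp1 was not tested. In Lin+ cells Egr1 spread little, at 23.2, 26.8 and 15.7 CPM.

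**Figure D4:**
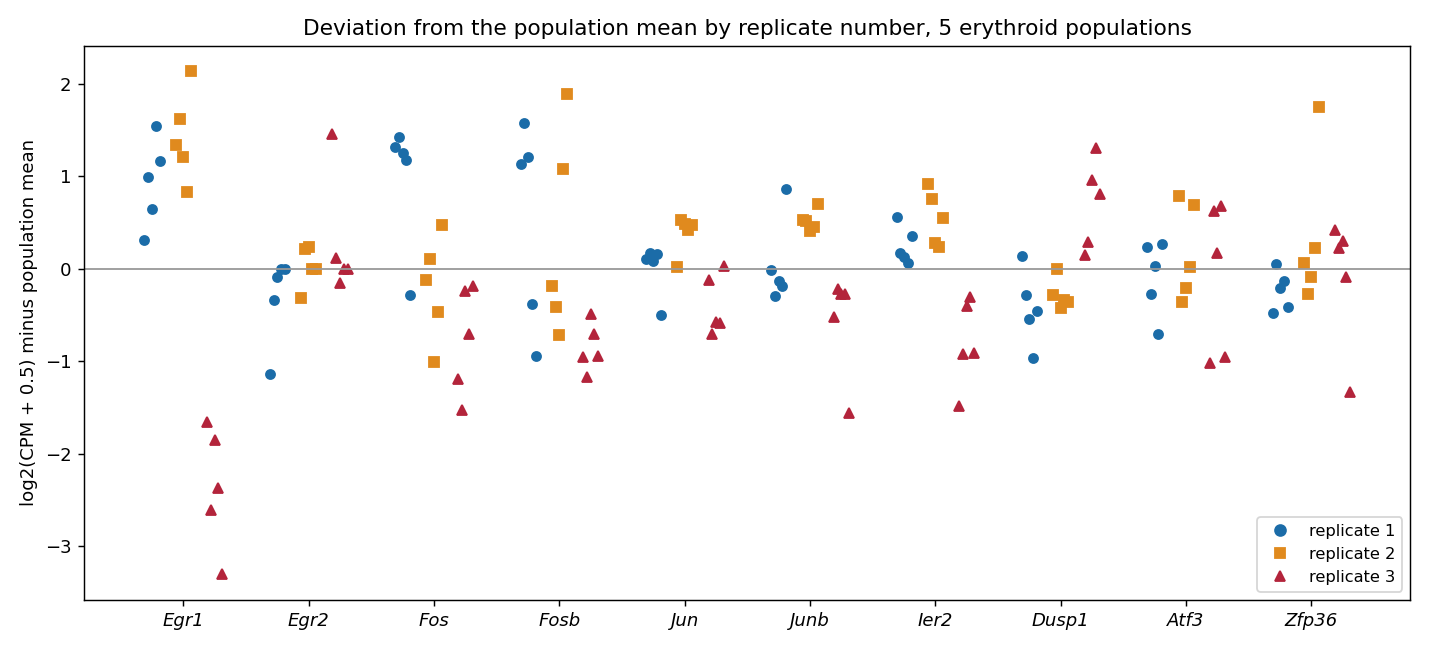
Deviation of log2(CPM + 0.5) from the population mean for each gene in the 15 erythroid libraries, grouped by replicate number (5 populations each). All 5 replicate 3 points of Egr1 and of Ier2 lie below 0 and all 5 of Dusp1 above it, while Atf3 and Zfp36 fall on both sides.

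Lin+ cells, which hold other blood lineages, were compared with both ends of the erythroid series, and the comparisons share libraries. Against S0-Low, edgeR over 17755 genes called 0 of the 10 genes, with 0.496% of all genes higher and 0.22% lower. Without adjustment, 4 of the 10 had a p under 0.05, all higher, beside 6.89% of all genes, and DESeq2 called 2, Atf3 and Zfp36. Atf3 was at 18, 4.96 and 25.4 CPM in Lin+, above every S0-Low library, with a log2 fold change of 4.58 (SE 1.07, edgeR adjusted p = 0.0595). Fos was at 24.6, 19.7 and 34.5 CPM (3.28, SE 1.26, adjusted p = 0.333) and Zfp36 at 45.5, 50.7 and 62.8 CPM (1.85, SE 0.63, adjusted p = 0.24). The libraries did not overlap for Fos, Dusp1, Atf3, Zfp36 and Jun, all higher in Lin+, as for 15.7% of all genes; 0 were separated as lower, beside 6.96%.

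Against S3, 1 gene was higher in Lin+ and 1 lower, where 28.2% and 14.1% of all genes were called (5005 and 2496 genes, or 7126 and 1338 with library totals). Egr2 had 55, 62 and 54 counts in Lin+ (1.85, 1.42 and 1.12 CPM) and 0 in S3, at least 8.22-fold higher by means against the floor (edgeR adjusted p = 0.0105). It entered the test only through Lin+, S0-Low and S0-Medium, so this call too is by itself no support for a difference. Dusp1 was at 47.3, 16.6 and 15.1 CPM in Lin+, each below every S3 library, with a log2 fold change of -3.48 (SE 0.64, adjusted p = 0.00037). The Dusp1 call held under all 13 alternatives. These were also the 2 genes whose Lin+ and S3 libraries did not overlap, beside 36.8% of all genes higher and 17.3% lower. Neutrophil and monocyte markers were high in Lin+ and at most 1.49 CPM in sum in S3, and their part in the Egr2 result was not tested.

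Ordered by mean level with TMM scaling, S3 ranked first for Egr1, Fos, Junb, Ier2, Dusp1 and Atf3. Lin+ ranked first for Egr2 and Zfp36, S2 for Jun and S0-Medium for Fosb. The TMM factors were 0.579 to 0.735 in S3 and 1.06 to 1.21 in Lin+. For Fos, Junb and Atf3 the fitted difference between Lin+ and S3 changed sign under some of the 13 alternatives. Ranks with library totals, and the same ranks for all genes, were not computed. Neighbours in these orders overlapped in their libraries for every gene except at 5 places. S3 stood clear of S2 for Dusp1, Lin+ clear of S0-Medium and S0-Medium clear of S0-Low for the same gene, Lin+ clear of S2 for Fos, and S0-Medium clear of S1 for Egr2.

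Of 30 other immediate early genes listed beside the 10, 28 were tested between S3 and S0-Low, and 6 were higher and 9 lower, beside 13.4% and 22.4% of all genes, with a median log2 fold change of -1.22 against -0.54 over all genes. The 4 with the highest mean level were Zfp36l2, Btg2, Klf10 and Jund. Btg2, an antiproliferative gene, rose from 30.2 ± 16.1 CPM in S0-Low to 1140 ± 606 in S3 (SD, n = 3; log2 fold change 5.24, SE 1.04, edgeR adjusted p = 0.00136). Jund, the third Jun protein, rose from 36.2 ± 5.23 to 256 ± 104.5 CPM (2.82, SE 0.40, adjusted p = 0.000107). Klf10 rose by 1.76 on the log2 scale (adjusted p = 0.00926). Zfp36l2, a relative of Zfp36, fell from 883.5 ± 217.7 to 122 ± 33.3 CPM (-2.86, adjusted p = 2.6e-05).

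Among 8 SRF and CREB activators, 1 passed as higher in S3 against S0-Low and 2 as lower, against the same 13.4% and 22.4% of all genes, and the median log2 fold change was -1.28. Atf1, a CREB relative, was the one that rose (1.47, SE 0.25, edgeR adjusted p = 0.000464). Srf itself was at 71.2 ± 12.04 CPM in S0-Low and 44.4 ± 20.4 in S3 (SD, n = 3; adjusted p = 0.141), and Creb1 at 155 ± 91.1 and 193 ± 50.6 (adjusted p = 0.53). Of 17 MAP kinase cascade genes tested, 4 were higher and 2 lower (median 0.07), Map2k4 rising by 0.82 (adjusted p = 0.0235) and Mapk14 falling by 1.56 on the log2 scale (adjusted p = 0.00225). Of 8 heat shock genes tested, 3 were higher and 0 lower (median -0.10). They were Dnajb1 (1.66, adjusted p = 0.00131), Hspa1a and Hspa1b, while Hspa8 was at 2885 ± 1912 CPM in S0-Low and 1608 ± 1031 in S3 (SD, n = 3; adjusted p = 0.421). Hspa1a and Hspa1b, inducible HSP70 genes named after their values were seen, are near-identical copies whose reads the counting could split. Hspa1a was at 0.517, 0.698 and 2.66 CPM in S0-Low, 1.82, 3.67 and 6.83 in S2 and 165.8, 122.4 and 136.7 in S3 (S3 against S0-Low 6.84, SE 0.78, adjusted p = 1.88e-05, and against S2 5.11, SE 0.71, adjusted p = 0.000688). Hspa1b was at 6.76 to 9.71 CPM in S0-Low, 2.54 to 12.9 in S2 and 200.0 to 229.8 in S3 (4.78, SE 1.16, adjusted p = 0.00541, and 4.68, SE 1.15, adjusted p = 0.0195). Both were high in S3 alone, where 6 of the 10 immediate early genes had their highest mean with TMM scaling. The part of Hspa1a and Hspa1b in those levels was not tested. From S2 to S3, where 3.26% of all genes were called higher and 6.09% lower, the counts higher and lower were 1 and 2 for the other immediate early genes, 0 and 0 for the SRF and CREB activators, 2 and 1 for the MAP kinase cascades and 2 and 0 for the heat shock genes. Without adjustment these became 4 and 6, 2 and 0, 2 and 3, and 2 and 2, beside 8.96% and 17.5% of all genes.

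The 10 genes did not move as one. Over the 18 libraries, which share their populations and their replicate numbers, log2(CPM + 0.5) of Ier2 correlated with that of Fos at r = 0.77, of Egr1 at 0.76 and of Junb at 0.69. Dusp1 correlated with Atf3 at 0.72 and with Egr1 at -0.09. After the population means were taken off, Egr1 correlated with Ier2 at 0.84 and with Junb at 0.77, and with Dusp1 at -0.71. The genes most like the mean of the 10 over 18 libraries, among 8996 genes with a mean of at least 10 CPM, were Gsr (r = 0.88), Cdkn1a (0.86), Phf8 (0.85), Ccdc88a and Fhl1 (both 0.84), Cebpb and B4galt5 (both 0.83), Atp6ap1 (0.82), and Samhd1 and Adar (both 0.80). After the population means were taken off they were Arf3, 1700021F05Rik and Per1 (all 0.90), Suv420h2 and Kalrn (both 0.89), Zdhhc18 (0.88), Tmem63b and Ankrd40 (both 0.87), and Brwd1 and Ets2 (both 0.86). Per1 is itself on the list of other immediate early genes.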

How the data were processed

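Nascent RNA was measured by 4sU labelling in 18 libraries, grouped and numbered from the labels. The authors used a stranded kit, quantified them with kallisto (version 0.43.0 and the build GRCm38, per the submitters' processing notes) and deposited whole-number counts per gene, unnormalized and unpooled. The transcript set, the treatment of introns and the strand setting of the counting are not given in the sources used here, so reads shared with overlapping or similar genes cannot be separated. Exon lengths came from an NCBIM37 annotation, used for length only.

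Counts were analysed with edgeR 4.0.16 in R 4.3.3 (TMM factors, filterByExpr by population, quasi-likelihood test, two-sided, Benjamini-Hochberg over all genes tested, threshold 0.05). The 15 erythroid libraries were fitted together, and all 18 for comparisons with Lin+. Total counts ranged from 9452476 to 40567976. The procedure was tested on simulated data, where most of the genes given a change between S3 and S0-Low were missed. Summaries used Python 3.11.15 and, on the log scale, a pseudocount of 0.5 CPM.

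The 10 genes and all lists were chosen with earlier results of these data known. From each other list at most 4 genes, those with the highest mean level over 18 libraries, are named, besides markers, Hspa1a, Hspa1b and genes named for the replicate number; those were chosen after their values were seen. The 10 genes most like the mean z-score of the members are named too. A log2 fold change is given for a member only where it exceeded its SE. A gene of the marker lists was left out and is not reported here.

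Same-numbered libraries correlated, in their deviations from population means over genes, at 0.17, 0.256 and 0.313 between S3 and S2, and above 0.1 for every pair of the earlier steps and of Lin+ with S0-Low, so these numbers were taken as pairs. For S3 with S0-Low (0.081 to 0.131) and Lin+ with S3 (0.091 to 0.16) they were not. The labels do not say what a number stands for. Alternatives were DESeq2 1.42.0, RLE factors, library totals, no filter, the replicate block, only the 6 libraries compared and each library left out. Leaving out replicate 3 of every population, and the test of the replicate number, were chosen after seeing the data.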

Additional observations from a re-analysis of the deposited data

How the results depend on the processing

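The number of the 10 genes called between S3 and S0-Low was 4 in the fit reported (35.8% of all genes), 2 to 4 when 1 library was left out (24.6% to 32.7%), 6 with no filter (21.6%), 5 with DESeq2 (45.5%), 3 with library totals (44.6%), 3 with only the 6 libraries compared (28.6%) and 6 with the replicate block (42.4%; there the numbers share only a label; every library correlated best with its own number). Between S3 and S2, 2 genes were called in the fit reported (9.35%), 0 with library totals (15.4%), 0 with only the 6 libraries compared (0.823%), 4 with no filter (8.81%), 5 with DESeq2 (21.8%), 4 with the replicate block (18.6%), 4 without replicate 3 of every population (18.9%) and 0 to 2 with 1 library left out (3.94% to 13.4%). Between Lin+ and S0-Low, 0 (0.715%) became 1 with RLE factors (0.834%), 2 with no filter (1.3%), 2 with DESeq2 (3.68%), 1 with only the 6 libraries (3.6%) and 1 without replicate 3 of every population (1.09%), and stayed 0 with the replicate block (1.93%). Between Lin+ and S3, 2 (42.2%) became 3 with the replicate block (48.1%), library totals (47.7%), no filter (23.9%) or DESeq2 (48%), 4 without replicate 3 of every population (39.9%) and 2 to 3 with 1 library left out (31.3% to 37.7%). The block changed no other call between paired groups. In the first 3 steps each alternative called 0 of the 10 genes, beside at most 2.35% of all genes (DESeq2, S1 against S0-Medium).

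Of 35 differences larger than their SE, recomputed in 452 values, 394 kept their direction and side of the threshold, 23 lost the threshold, 32 gained it and 3 reversed. The reversed ones were Jun (-0.14) and Junb (-0.07) in S3 against S0-Low with library totals, and Zfp36 in S3 against S2 without S3 replicate 2 (-0.16, from 1.28; the range with 1 library left out was -0.16 to 1.72). Library totals moved the median of all genes from -0.54 to -1.36 in S3 against S0-Low and from -0.31 to -0.82 in S3 against S2. The causes of these changes were not tested. Genes under about 10 counts in a library, as Egr2 and Fosb often were, are limited by depth, most of all in S0-Low replicate 3.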
